A study of Homo sapiens with 2 samples.

Results

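TYMS and 8 other enzymes that make or recycle the building blocks of DNA and RNA are described here in cells labelled H1299, a line grown from a lymph node metastasis of a human non-small cell lung carcinoma. The members were chosen by name (TYMS, TK1, DTYMK, DUT, RRM1, RRM2, CAD, UMPS and HPRT1), and all 9 were found among the 38637 genes listed. TYMS transcript stood lower in the library of PHF12 knockdown cells, at 60.1% of the control level, and DTYMK, HPRT1 and TK1 were lower by smaller amounts, at 72.2%, 76.7% and 77.6%. The 2 subunits of ribonucleotide reductase, RRM1 and RRM2, stood at 102% and 101% of the control level, and DUT, CAD and UMPS at 89.8%, 91.2% and 95.1%.

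There were 2 poly(A)-selected RNA-seq libraries, 1 of cells labelled as PHF12 knockdown, whose title carries the prefix si, and 1 of cells labelled as having no treatment, whose title ends in nc. Both carry the genotype label wild type. The stated interest of the series is PHF12, a PHD finger protein of a Sin3 and histone deacetylase corepressor complex, together with HDAC1 and signalling through EGFR and AKT. PHF12 transcript was modestly lower in the library labelled knockdown. It had 756 counts and 8.71 TPM there, against 947 counts and 11.4 TPM in the control library. The ratio was 0.753 (95% counting interval 0.683 to 0.829). TPM is transcripts per 1000000 by listed gene length, as deposited, and CPM is counts per 1000000 counts. Of all genes averaging 1 CPM or more, 5.74% (836) had a ratio as low or lower. The PHF12 value alone therefore does not establish the knockdown. The sources used here do not say if an oligonucleotide was also given to the control cells, so an effect of PHF12, one of the oligonucleotide and a difference between single cultures cannot be told apart.

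The knockdown library held 26084594 counts and the control library 24740581. Of the genes listed, 14559 averaged 1 CPM or more and are called measured here, and all 9 enzymes were among them, with means from 55.3 CPM for UMPS to 193 CPM for CAD. Over all genes measured the median log2 ratio was −0.0074, and 51.6% lay below 0. VIM and the keratin genes KRT8 and KRT18 were abundant, while 13 markers of immune, endothelial, fibroblast and normal lung epithelial cells summed to 3.12 TPM in the knockdown and 2.94 TPM in the control library, with PTPRC, CD3E, SFTPC and SCGB1A1 at 0 counts in both. Every ratio below is that of the knockdown over the control library in TMM-scaled CPM, with no pseudocount. With 1 library per group no test could be made, the ratios compare these libraries and not the conditions, and the 95% intervals cover counting error only. In bulk samples fewer cells that make a transcript and less of it per cell cannot be told apart.

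Cells obtain deoxynucleotides along linked routes. De novo synthesis builds pyrimidine and purine rings from amino acids, carbon dioxide and folate-bound carbon units, ribonucleotide reductase turns ribonucleotides into deoxyribonucleotides, and salvage enzymes recover bases and nucleosides. Thymidylate is the special case: thymidylate synthase methylates dUMP to dTMP, the only de novo source of the base that sets DNA apart from RNA, and it is the target of the drug fluorouracil. Many of these genes are transcribed most in late G1 and S phase, and E2F factors are known regulators of several of them.

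In the knockdown library the order of the enzymes by TPM was TYMS, DTYMK, HPRT1, TK1, RRM2, CAD, RRM1, DUT and UMPS, and the control library had the same order apart from DUT standing above RRM1. TYMS was the highest in both, above 93.1% of the genes measured in the knockdown and 96.1% in the control library. HPRT1 and TK1 did not differ beyond counting error in either library, with 121 (115 to 127) and 119 TPM (114 to 125) in the knockdown library and 155 (148 to 162) and 151 TPM (145 to 157) in the control library. CAD and RRM1 also had overlapping counting intervals in the knockdown library, at 68.8 (66.9 to 70.8) and 66.3 TPM (63.5 to 69.1), as did RRM1 and DUT there, with DUT at 62.0 TPM (59.6 to 64.5). RRM1 and DUT overlapped in the control library too, at 63.7 (61.0 to 66.6) and 67.9 TPM (65.3 to 70.5). The listed lengths of DUT, RRM2 and RRM1 are 4358, 4535 and 3581 bases. Their longest GENCODE release 29 coding transcripts are shorter, at 2147, 3673 and 3076 bases. This lowers their TPM against the other genes in both libraries alike. The listed lengths of TYMS, TK1, CAD and UMPS also exceed that of their longest coding transcript, by less. Together the 9 enzymes summed to 853 TPM in the knockdown and 1082 TPM in the control library, and TYMS made up 46.7% of that difference.

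**Figure D1:**
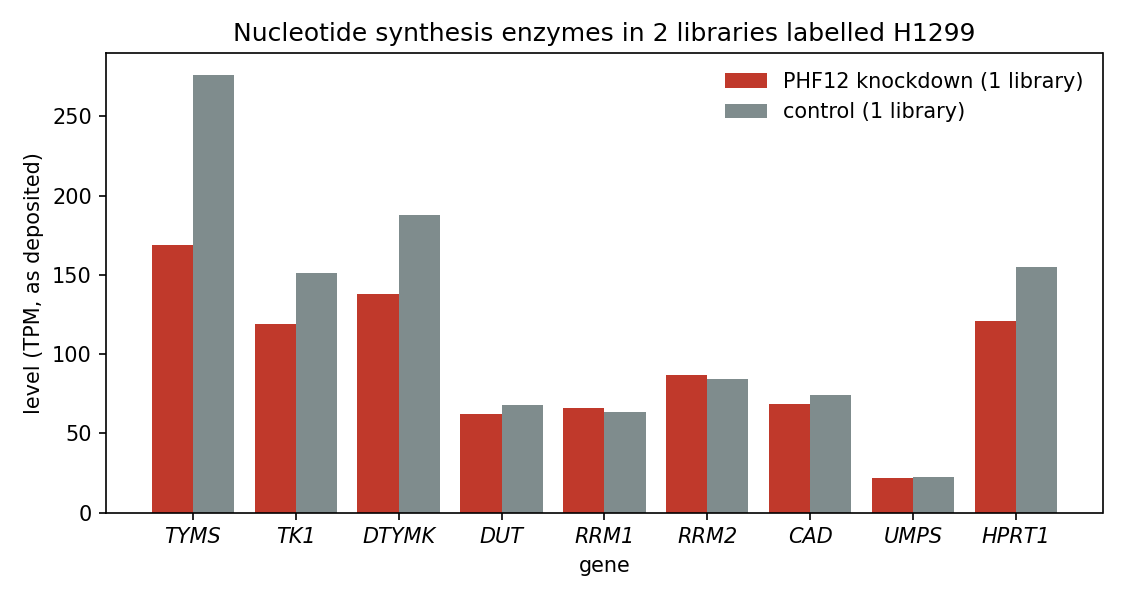
Levels of the 9 enzymes in TPM, as deposited, with 1 bar for the PHF12 knockdown library (left, red) and 1 for the control library (right, grey); with 1 library each there is no error bar. TYMS stands at 169 TPM in the knockdown and 276 TPM in the control library, whereas RRM1, RRM2 and UMPS have bars of nearly equal height.

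The 2 lowest ratios were those of TYMS and DTYMK, of the thymidylate branch. TYMS, which encodes thymidylate synthase, spans 657653 to 673578 of chromosome 18 on the plus strand (hg38). It had 2815 counts and 169 TPM in the knockdown library, against 4418 counts and 276 TPM in the control library. The log2 ratio was −0.73 (−0.80 to −0.67), and 1.19% of the genes measured (173 of 14559) were as low or lower. DTYMK, the kinase that phosphorylates dTMP to dTDP, spans 241675747 to 241686815 of chromosome 2 on the minus strand. It had 1536 counts and 138 TPM in the knockdown library, against 2006 counts and 188 TPM in the control library, a log2 ratio of −0.47 (−0.57 to −0.37). The intervals of TYMS and of DTYMK, the next enzyme on its route to dTTP, did not overlap.

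TK1, the cytosolic thymidine kinase that salvages thymidine into dTMP and is used as a proliferation marker, spans 78174079 to 78187204 of chromosome 17 on the minus strand. It had 1873 counts and 119 TPM in the knockdown library, against 2276 counts and 151 TPM in the control library, a log2 ratio of −0.37 (−0.45 to −0.28). With a trend on GC content and transcript length removed the log2 ratio of TK1 was −0.27, no longer at or below 80% of the control level. DUT, the dUTPase that removes dUTP and supplies the dUMP that thymidylate synthase uses, spans 48329991 to 48343373 of chromosome 15. It had 2506 counts and 62.0 TPM in the knockdown library, against 2631 counts and 67.9 TPM in the control library, a log2 ratio of −0.15 (−0.23 to −0.075). The 4 members of the thymidylate branch were thus lower, with ratios from 0.601 for TYMS to 0.898 for DUT. DCTD, which also supplies dUMP, stood above 0, at a log2 ratio of 0.16 (0.075 to 0.25). The mitochondrial thymidine kinase gene TK2 stood at 0.17 (−0.027 to 0.36), with an interval that held 0.

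Ribonucleotide reductase had ratios near 1. RRM1, the large catalytic subunit, spans 4094685 to 4138932 of chromosome 11 and had 2199 counts and 66.3 TPM in the knockdown library, against 2029 counts and 63.7 TPM in the control library. Its log2 ratio was 0.031 (−0.056 to 0.12). RRM2, the S-phase small subunit that carries the tyrosyl radical, spans 10122568 to 10211010 of chromosome 2 and had 3652 counts and 86.9 TPM in the knockdown library, against 3401 counts and 84.3 TPM in the control library. Its log2 ratio was 0.018 (−0.050 to 0.086). Both intervals held 0, and the counts of RRM2 per count of RRM1 were 1.66 in the knockdown and 1.68 in the control library, a ratio of 0.991 (0.917 to 1.07). RRM2B, the alternative small subunit that also serves cells outside S phase, had 1482 counts in the knockdown and 1461 in the control library, a log2 ratio of −0.064 (−0.17 to 0.041).

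CAD and UMPS, of de novo pyrimidine synthesis, stood near the control level. CAD, a single protein with the first 3 activities of the route, spans 27217369 to 27243943 of chromosome 2 and had 4809 counts and 68.8 TPM in the knockdown library, against 4973 counts and 74.2 TPM in the control library, a log2 ratio of −0.13 (−0.19 to −0.076). UMPS, which closes the route by making UMP from orotate, spans 124730442 to 124749273 of chromosome 3. It had 1410 counts and 21.8 TPM in the knockdown library, against 1398 counts and 22.6 TPM in the control library, a log2 ratio of −0.072 (−0.18 to 0.035), so no difference was detectable at this depth. DHODH, the mitochondrial enzyme between them, was lower than either, with 295 counts in the knockdown and 365 in the control library and a log2 ratio of −0.39 (−0.62 to −0.17).

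HPRT1 encodes the purine salvage enzyme that returns hypoxanthine and guanine to IMP and GMP, and is widely used as a reference gene. It spans 134460165 to 134500668 of chromosome X and had 1560 counts and 121 TPM in the knockdown library, against 1919 counts and 155 TPM in the control library. Its log2 ratio was −0.38 (−0.48 to −0.29). None of the other 14 genes in a list of common reference genes was as far from 0 in either direction. They ranged from −0.17 for GUSB (1697 counts in the knockdown and 1799 in the control library) to 0.22 for ACTB (60950 counts in the knockdown and 49326 in the control library), with a median of −0.078. GAPDH stood at −0.10, RPL13A at −0.13, RPLP0 at −0.11, PPIA at −0.087, TBP and TFRC both at −0.078, B2M at −0.027, PGK1 at −0.020, SDHA at −0.0081 and YWHAZ at 0.13. HPRT1 relative to these genes was therefore also lower: its counts per count of TBP were 1.46 in the knockdown and 1.80 in the control library, a ratio of 0.809 (0.725 to 0.903), and per count of GUSB they were 0.919 in the knockdown and 1.07 in the control library, a ratio of 0.862 (0.783 to 0.948).

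**Figure D2:**
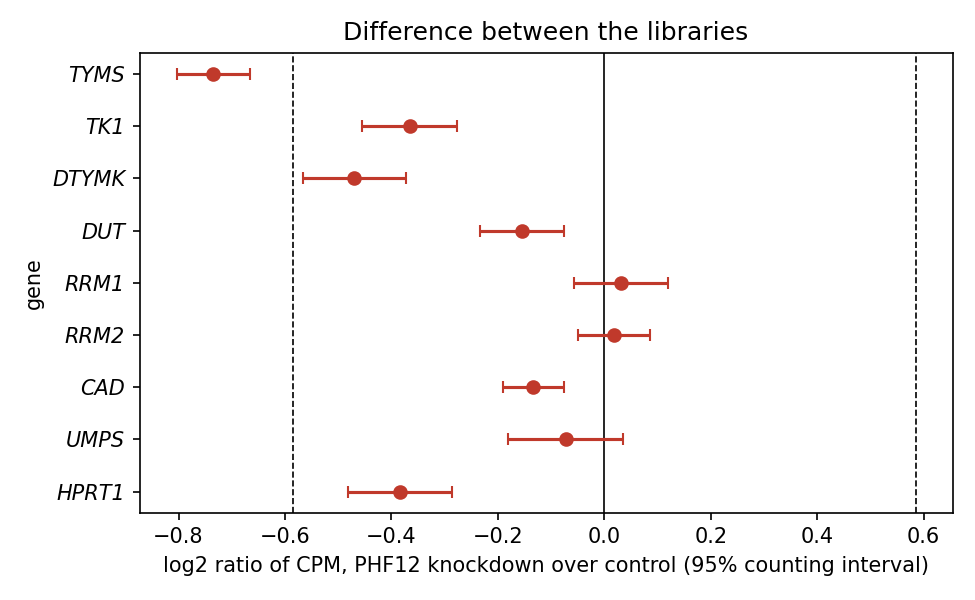
Log2 ratio of CPM, PHF12 knockdown over control, for each enzyme (points) with the 95% counting interval (bars); the solid line is no difference and the dashed lines are 1.5-fold. The intervals of 6 enzymes lie below 0, those of RRM1, RRM2 and UMPS hold 0, and TYMS alone lies past 1.5-fold.

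By a rule of size of at least 1.5-fold, 1 of the 9 enzymes was lower (TYMS), where 2.29% of all genes measured were, and none was higher, where 2.16% were. At or below 80% of the control level were 4 of the 9 (TYMS, DTYMK, HPRT1 and TK1), where 9.41% of all genes measured were, and none was at or above 125%, where 8.28% were. These 4 enzymes also have the shortest listed lengths of the 9, from 1202 bases for DTYMK to 1799 for TYMS. The next is RRM1 with 3581 bases. With the GC and length trend removed the count at or below 80% was 3, without TK1, where 7.99% of the genes were. Beyond that removal, the part of length in the ratios was not tested. Among the 4869 genes averaging 50 CPM or more, a level that all 9 enzymes reached, 0.513% were at least 1.5-fold lower and 3.2% at or below 80%. At 2-fold none of the enzymes was lower or higher, where 0.316% and 0.33% of all genes measured were. The median log2 ratio of the 9 was −0.15, and 7 lay below 0.

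**Figure D3:**
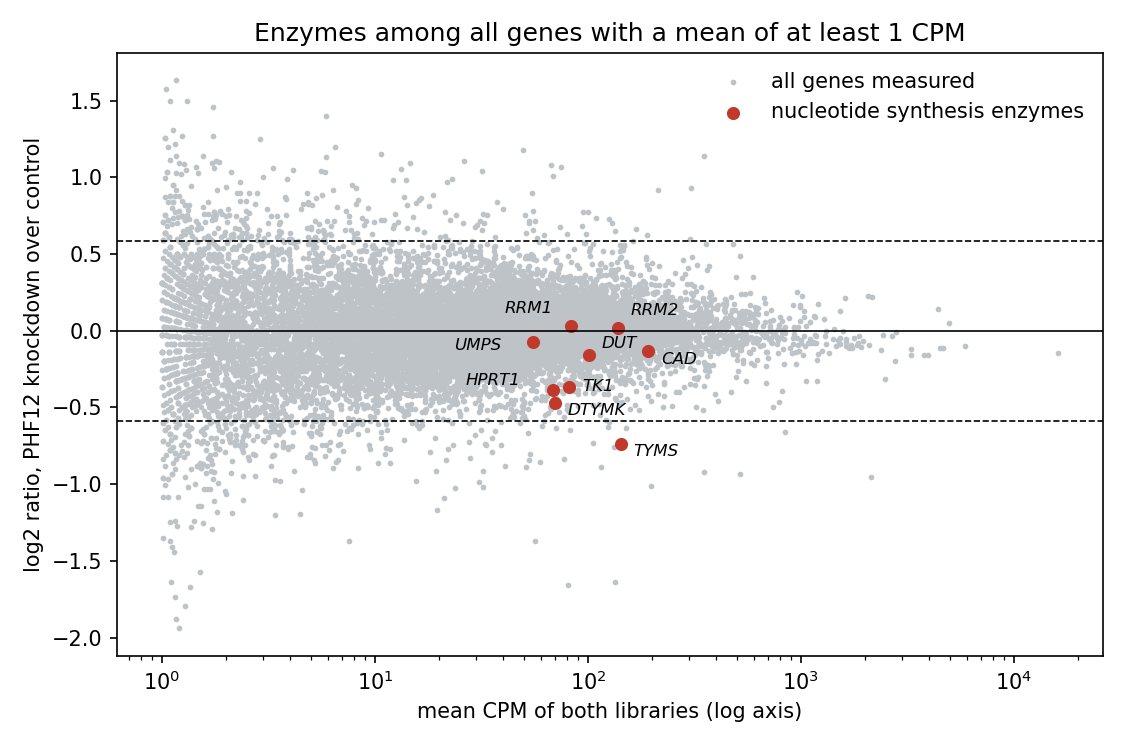
Log2 ratio against mean CPM (log axis) for the 14559 genes measured (grey) and the 9 enzymes (red, named); dashed lines are 1.5-fold. The spread of all genes narrows with abundance, and TYMS at 143 CPM lies below the dashed line while RRM1 and RRM2 lie on the zero line.

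A ratio of the counts of 2 genes within a library does not depend on how the libraries are scaled. TYMS was lower relative to each of the other 8 enzymes. Its counts per count of RRM2 were 0.771 in the knockdown and 1.30 in the control library, a ratio of 0.593 (0.555 to 0.635), and per count of RRM1 the ratio was 0.588 (0.544 to 0.635). Relative to DTYMK, the enzyme nearest to it, TYMS had 1.83 counts per count in the knockdown and 2.20 in the control library, a ratio of 0.832 (0.766 to 0.904). Relative to the replication clamp gene PCNA the ratio was 0.649 (0.598 to 0.704).

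**Figure D4:**
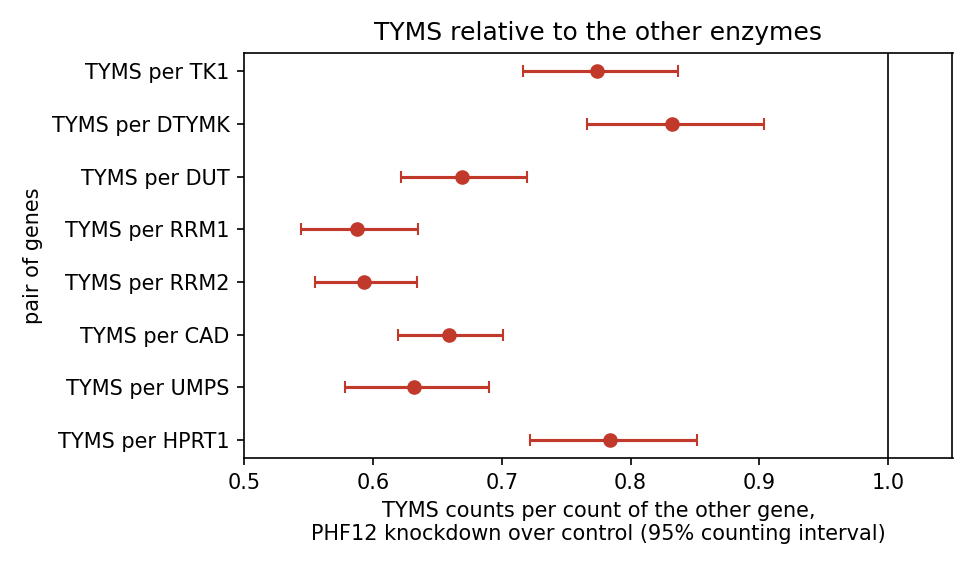
Counts of TYMS per count of each other enzyme, as the ratio of the PHF12 knockdown to the control library (points) with 95% counting intervals (bars); the line at 1 is no difference. The 8 ratios run from 0.588 per RRM1 to 0.832 per DTYMK, and no interval reaches 1.

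Around the 9 enzymes, 59 further genes of the pathway were listed and 58 were measured, all but CDA. Their median log2 ratio was −0.097 and 43 of 58 lay below 0, beside a median of −0.0074 and 51.6% below 0 over all genes measured. At or below 80% of the control level were 7 of the 58, where 9.41% of all genes measured were. Among genes averaging 50 CPM or more, a level that only some of the 58 reached, the share was 3.2%. The count of 7 became 4 with the deposited TPM and 3 once the GC and length trend was removed. None was at or above 125%, where 8.28% of all genes measured were, and none was 1.5-fold lower or higher, where 2.29% and 2.16% were.

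The thymidylate and folate list had the lowest median of the 7 pathway lists, at −0.20 over 14 genes, of which 11 lay below 0 and 4 were at or below 80% of the control level. Beside TYMS and DTYMK these were MTHFD2 and SLC19A1. For comparison with this list and those below, 51.6% of all genes measured lay below 0 and 9.41% were at or below 80%. Among genes averaging 50 CPM or more, 3.2% were at or below 80%. MTHFD2, a mitochondrial enzyme of folate-bound carbon units, had 4283 counts in the knockdown and 5210 in the control library, a log2 ratio of −0.37 (−0.43 to −0.31). SLC19A1, the reduced folate carrier of the plasma membrane, had 1049 counts in the knockdown and 1253 in the control library, a log2 ratio of −0.34 (−0.46 to −0.22). SHMT2, which feeds the mitochondrial branch from serine, stood at −0.30 (−0.36 to −0.24). Its cytosolic counterpart SHMT1 stood at −0.017 (−0.12 to 0.084), MTHFD1 at −0.076 (−0.13 to −0.020) and MTHFD2L, a mitochondrial paralog of MTHFD2, at 0.081 (−0.16 to 0.32). DCTD, the deaminase that makes dUMP from dCMP, was on the other side of 0, with 2193 counts in the knockdown and 1845 in the control library and a log2 ratio of 0.16 (0.075 to 0.25).

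In pyrimidine salvage, 6 of 9 genes measured lay below 0 with a median of −0.14, and the genes at or below 80% of the control level were TK1 and UPP1. UPP1, a uridine phosphorylase, had 1066 counts in the knockdown and 1261 in the control library, a log2 ratio of −0.33 (−0.45 to −0.21). TK2, the mitochondrial thymidine kinase, stood at 0.17 (−0.027 to 0.36), on the other side of 0 from TK1, with 482 counts in the knockdown and 405 in the control library. In the de novo pyrimidine list the median was −0.10 with 5 of 8 below 0. Its most abundant member, the nucleoside diphosphate kinase gene NME2, stood at −0.18, and CTPS1, a CTP synthase, at 0.18 (0.098 to 0.25).

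The de novo purine list had a median of −0.099 with 13 of 16 below 0. IMPDH1, an IMP dehydrogenase of guanine nucleotide synthesis, was its lowest member, with 1174 counts in the knockdown and 1532 in the control library and a log2 ratio of −0.47 (−0.58 to −0.36). Its more abundant paralog IMPDH2, at 263 TPM in the knockdown and 305 TPM in the control library, stood at −0.23 (−0.29 to −0.18). In purine salvage 6 of 7 genes lay below 0 with a median of −0.17, and beside HPRT1 the gene at or below 80% was ADA, adenosine deaminase, with 293 counts in the knockdown and 352 in the control library and a log2 ratio of −0.35 (−0.58 to −0.12). APRT, which salvages adenine as HPRT1 does hypoxanthine, stood at −0.17 (−0.24 to −0.10).

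Among 10 genes of nucleotide clearance and transport the median was −0.087, with 8 below 0, and removal of the GC and length trend left it at −0.028. DCTPP1, a dCTP pyrophosphatase, had 936 counts in the knockdown and 1121 in the control library, a log2 ratio of −0.34 (−0.47 to −0.22). SAMHD1, the dNTP triphosphohydrolase that limits dNTP pools, was higher in the knockdown library, with 2926 counts against 2390 in the control library and a log2 ratio of 0.21 (0.13 to 0.29). NT5E, the cell-surface nucleotidase CD73 and the most abundant member, stood at 0.26 (0.23 to 0.28), with 828 TPM in the knockdown and 682 TPM in the control library.

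Of the proliferation genes, 16 of 17 also lay below 0, with a median of −0.21, beside 51.6% below 0 over all genes measured. At or below 80% of the control level were 4 (CDT1, E2F2, CCNE2 and MCM2), where 9.41% of all genes measured were. Among genes averaging 50 CPM or more, a level that not all 17 reached, the share was 3.2%. CDT1, a replication licensing factor, stood at −0.45 (−0.52 to −0.38) and the E2F transcription factor gene E2F2 at −0.52 (−0.75 to −0.30). The cyclin E2 gene CCNE2 stood at −0.37 (−0.58 to −0.16) and the helicase subunit gene MCM2 at −0.34 (−0.40 to −0.27). MCM7, the most abundant of the list, stood at −0.21 (−0.24 to −0.18), PCNA at −0.11 (−0.21 to −0.016), TOP2A at −0.060 (−0.11 to −0.0098), CDC6 at −0.0067 (−0.14 to 0.13) and MKI67 at 0.018 (−0.023 to 0.059). Their part in the ratios of the enzymes was not tested.

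**Figure D5:**
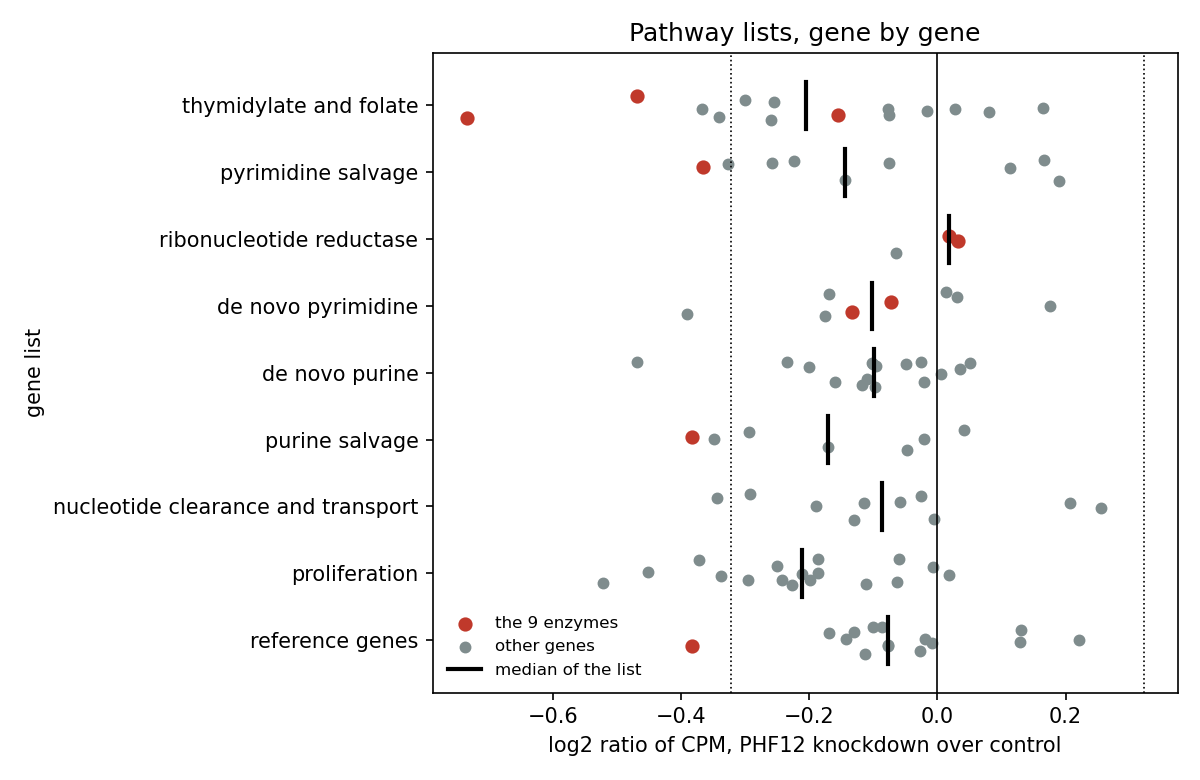
Log2 ratio of CPM, PHF12 knockdown over control, for each measured gene of 7 pathway lists and of the proliferation and reference gene lists; red points are the 9 enzymes, grey points other genes, black bars list medians and dotted lines 80% and 125% of the control level. The thymidylate and folate list reaches lowest, through TYMS, and HPRT1 lies apart from the other reference genes.

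Among the 8141 protein-coding genes averaging 20 CPM or more, TYMS was the 27th lowest by log2 ratio. Likeness can be given only as closeness of this 1 ratio over 2 libraries. The 3 genes just below TYMS were NMRAL1, DGAT2 and REEP3, at −0.74 each, and the 3 just above were CEBPB at −0.73, RGS14 at −0.73 and BCL3 at −0.70. CEBPB, a stress-responsive transcription factor gene, was the nearest to TYMS in abundance, with 2079 counts in the knockdown and 3251 in the control library.

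Reads that could belong to more than 1 gene touch TYMS and TK1. The last 3261 bases of the TYMS locus overlap ENOSF1 on the other strand, and the strand setting of the counting is not given in the sources used here. ENOSF1 had 2651 counts in the knockdown and 3241 in the control library, a log2 ratio of −0.37 (−0.45 to −0.30), on the same side of 0 as TYMS and nearer to it. TYMSOS, a long non-coding RNA over the start of TYMS on the other strand, had 109 counts in the knockdown and 100 in the control library. AFMID overlaps 2103 bases of TK1 on the other strand and had 435 counts in the knockdown and 475 in the control library, a log2 ratio of −0.21 (−0.40 to −0.021). Processed pseudogenes of several of these enzymes are known and were not analysed here.

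To show the DNA in front of the enzymes that stood apart, the 250 bases upstream of the start site are printed for the 4 members at or below 80% of the control level and, for contrast, for RRM2, each taken at the RefSeq start site (GRCh38.p14) that equals the start of the gene in the table. They run 5′ to 3′ on the strand of the gene, and capitals mark matches on either strand to 4 kinds of motif. The E2F words searched were TTCCCGC and its variant TTGGCGC, the variant TTCGCGC and finally the variant TTGCCGC. The E-box was CACGTG, the CCAAT box was those 5 letters, and the GC box was GGGCGG.
TYMS promoter, chr18:657403-657652, plus strand: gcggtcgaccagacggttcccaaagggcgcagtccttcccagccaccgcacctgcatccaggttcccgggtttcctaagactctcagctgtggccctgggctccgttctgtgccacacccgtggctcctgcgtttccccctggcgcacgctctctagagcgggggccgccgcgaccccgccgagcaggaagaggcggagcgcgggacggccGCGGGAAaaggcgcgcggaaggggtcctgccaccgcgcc
DTYMK promoter, chr2:241686816-241687065, minus strand: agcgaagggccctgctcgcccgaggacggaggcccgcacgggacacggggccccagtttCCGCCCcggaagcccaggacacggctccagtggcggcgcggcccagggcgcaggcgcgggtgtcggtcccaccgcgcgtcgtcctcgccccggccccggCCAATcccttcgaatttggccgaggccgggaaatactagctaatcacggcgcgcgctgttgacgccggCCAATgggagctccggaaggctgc
TK1 promoter, chr17:78187205-78187454, minus strand: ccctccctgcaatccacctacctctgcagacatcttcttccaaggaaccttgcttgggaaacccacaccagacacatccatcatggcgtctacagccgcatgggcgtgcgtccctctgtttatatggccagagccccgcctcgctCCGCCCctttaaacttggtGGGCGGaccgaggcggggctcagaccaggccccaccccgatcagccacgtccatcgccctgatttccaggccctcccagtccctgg
HPRT1 promoter, chrX:134459915-134460164, plus strand: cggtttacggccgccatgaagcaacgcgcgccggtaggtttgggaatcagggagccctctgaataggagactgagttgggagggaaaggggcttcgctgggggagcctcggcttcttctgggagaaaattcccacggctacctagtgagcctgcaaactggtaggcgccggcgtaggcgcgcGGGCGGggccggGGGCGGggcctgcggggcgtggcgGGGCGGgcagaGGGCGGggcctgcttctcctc
RRM2 promoter, chr2:10122318-10122567, plus strand: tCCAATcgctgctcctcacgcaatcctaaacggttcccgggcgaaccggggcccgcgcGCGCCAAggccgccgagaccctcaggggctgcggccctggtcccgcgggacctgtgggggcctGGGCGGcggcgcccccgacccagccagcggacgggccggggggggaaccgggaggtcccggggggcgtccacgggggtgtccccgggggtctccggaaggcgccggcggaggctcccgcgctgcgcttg

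All 9 enzymes had RefSeq promoter windows of 300 bases (250 before to 50 after a start site), 14 in all because TK1, DUT and RRM2 have several start sites. An E2F word was found in a window of 5 members (TYMS, TK1, DUT, RRM1 and RRM2), in 5 of 14 windows, beside 13.0% of all 35116 windows and 19.1% of the 15118 windows of measured protein-coding genes. In TYMS the match begins 39 bases before the start site and is read on the other strand, as GCGGGAA in the printed strand. The TK1 window printed holds none, but a second TK1 window holds an E2F word 12 bases before its start site and 2 CCAAT boxes. The RRM2 window printed holds its E2F word 192 bases before the start site, and a second RRM2 window holds no E2F word and 3 CCAAT boxes. GC boxes were found in 10 of the 14 windows, beside 66.1% of the windows of measured protein-coding genes, and in every member but TYMS and UMPS, with 4 in HPRT1. CCAAT boxes were found in 6 of the 14 windows (of TK1, DTYMK, RRM1, RRM2 and CAD), beside 34.7% of those windows, and an E-box in none, beside 9.52%. TTGGCGC on the other strand can share bases with CCAAT, and GGGCGG with TTCCCGC on the other strand, but no such overlap occurred in these windows. E2F words were found in TYMS, TK1 and DUT, which were lower, and in RRM1 and RRM2, the highest. None was found in DTYMK, HPRT1, CAD or UMPS. A part of these motifs in the ratios was not tested.

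Short words in transcripts were also looked up, since ACATCGA and CATCGAA are over-represented in the 3′ UTRs of lower genes of these libraries, and TCGGAGA and ATCGGAG in those of higher genes. Of the 262 protein-coding genes at least 1.5-fold lower that have an annotated 3′ UTR, 13.0% held a word of the lower genes there, beside 3.13% of all 12323 such genes measured. Of the 178 at least 1.5-fold higher, 14.0% held a word of the higher genes, beside 3.68%. The words were found in these same libraries, so these shares are no separate evidence. None of the 9 enzymes held any of the 4 words in an annotated 3′ UTR. Elsewhere in the transcript, in coding sequence, a word of the lower genes was found in TYMS, DTYMK and UMPS, and one of the higher genes in CAD and RRM2. Over all 12323 genes the shares with such a word in any part of the transcript were 16.1% and 17.6%. Each of these sites is printed once, with 7 bases on either side and the word in capitals, because TYMS and DTYMK are the 2 lowest members (GENCODE release 29, hg38; exons are numbered in the longest coding transcript that holds the site).
TYMS coding exon 6, chr18:671422-671442, plus strand: ctgaatcACATCGAgccactg
DTYMK coding exon 5, chr2:241676204-241676224, minus strand: ccaaaagCATCGAAgctgtcc
UMPS coding exon 1, chr3:124730574-124730594, plus strand: cccatctACATCGAtctgcgg
UMPS coding exon 3, chr3:124737969-124737989, plus strand: ccagttgCATCGAAgcttctc
RRM2 coding exon 8, chr2:10128894-10128914, plus strand: acaaaccATCGGAGgagagag
CAD coding exon 11, chr2:27225189-27225209, plus strand: ggcagagATCGGAGagcatgt
CAD coding exon 40, chr2:27242344-27242364, plus strand: gatggggTCGGAGAgcacccc
In CAD exon 11 both words of the higher genes overlap, and only the first is in capitals. Genes with a word of the lower genes in the transcript but in no 3′ UTR numbered 1598, with a median log2 ratio of −0.078 and 3.75% at least 1.5-fold lower, beside a median of −0.00098 and 1.62% among the 10339 genes with no such word. UMPS, with a site of each lower word, stood at −0.072, near that median, while TYMS with 1 site stood at −0.73 and DTYMK with 1 site at −0.47. HPRT1 and TK1, the other members at or below 80%, held none of the 4 words. The words came from these same libraries, so these medians and shares are no separate evidence either. A part of the coding sites in the ratios was not tested.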

How the data were processed

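RNA-seq was measured in 2 H1299 libraries, 1 per group, grouped by the treatment label, and the table's columns were matched by sample title. Per the labels' protocols, poly(A) mRNA was made into NEBNext Ultra libraries and sequenced as paired ends. Per the submitters' processing notes, HISAT2 and HTSeq were used with the hg38 build, with no version or strand setting given in the sources used here. The authors deposited raw counts per gene and TPM values, and dividing the counts by listed length and scaling returned the deposited TPM to within 1e-06.

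edgeR 4.0.16 under R 4.3.3 gave TMM factors of 1.00 (knockdown) and 0.997 (control). Genes averaging 1 CPM or more were kept. Ratio intervals are exact conditional Clopper-Pearson 95% intervals for 2 Poisson counts, and level intervals are exact Poisson intervals. The ratio intervals were tried only on simulated Poisson counts, the model they assume, so that check says nothing about spread between cultures. Alternatives were total counts, DESeq2 1.42.0 size factors, the deposited TPM, a thinned knockdown library, a pseudocount of 0.5 CPM, other filters (at least 1 count in each library, 5 CPM, protein-coding only) and other folds (80% or 125% of the control level, and 2-fold). Removal of a cubic trend on GC content and transcript length and a minimum of 50 CPM were added after the data were seen, as were the alternatives for the count of members at or below 80%. Genes named are the 9 members, list genes past 80% or 125% of the control level with an interval that excludes no difference, the most abundant gene of a list, the reference genes, the 6 nearest TYMS, overlapping genes and PHF12; others given for contrast were chosen after their values were seen. The values of some list and marker genes are not reported here, though list counts and medians include them. The members and lists were chosen with earlier results of these data known. Figures were drawn with matplotlib 3.10.9, and intervals were computed with scipy 1.17.1 under Python 3.11.15.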

Additional observations from a re-analysis of the deposited data

How the results depend on the processing

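Under scaling by total counts, DESeq2 size factors, the deposited TPM, a thinned knockdown library, a pseudocount of 0.5 CPM and removal of the GC and length trend, the log2 ratio of TYMS ran from −0.73 to −0.71, that of DTYMK from −0.47 to −0.40, that of HPRT1 from −0.41 to −0.36 and that of TK1 from −0.37 to −0.27, TK1 leaving its counting interval only with the trend removed. RRM2 stood at −0.0030 with the trend removed, on the other side of 0. TYMS remained past 1.5-fold in each of them, and the members at least 2-fold lower numbered 0. The members at or below 80% of the control level numbered 4 in each of these settings but the removal of the trend, where they numbered 3, without TK1. The share of all genes at least 1.5-fold lower was 1.41% with the pseudocount, 9.09% with at least 1 count in each library, 0.96% with a minimum of 5 CPM and 0.513% with one of 50 CPM. The share at least 1.5-fold higher was 1.33% with the pseudocount, 9.14% with at least 1 count in each library, 1.04% with 5 CPM and 0.596% with 50 CPM. With the trend removed the purine salvage median was −0.077 and that of clearance and transport −0.028, while the pathway genes other than the 9 enzymes at or below 80% numbered 4 with the deposited TPM and 3 with the trend removed. The causes were not tested. No scaling moved the median of all genes by more than 0.025. No paired analysis was possible because each group has 1 library. Intervals cover counting error only, and the spread between cultures is unknown.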
